A study of Mus musculus with 15 samples.

Results

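The mitochondrial ribosome (mitoribosome) translates the few mRNAs that the mitochondrial genome still encodes, all of them for subunits of the respiratory chain and ATP synthase. Its ribosomal RNAs come from the mitochondrial genome, but its proteins are encoded in the nucleus, made in the cytosol and imported. The proteins named Mrpl belong to the large subunit, which holds the peptidyl transferase center, and those named Mrps mostly to the small subunit, which reads the mRNA. Some have counterparts in the bacterial ribosome and others are found only in mitochondria. Cardiomyocytes, which beat on oxidative phosphorylation, carry many mitochondria.

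The genes described here were all protein-coding genes of the deposited table whose symbol starts with Mrpl or Mrps followed by a digit. They were chosen by name and not by their values, though earlier results of these data were known. There were 78 such genes in 80 of the 16690 gene rows kept for the tests, in which 3 hearts or more had 10 or more normalized counts. No gene of this name failed that filter, since 80 rows were found with and without it. Mrps10 and Mrps23 each stood in 2 rows under different Ensembl IDs with identical values in every heart, so each was counted as 1 gene. Whether such a row holds all or a part of the gene's reads was not given. Of the 78, 51 are proteins of the large subunit and 26 of the small subunit, counting Mrps30 and Mrps18a with the large subunit, where they sit despite their names. The remaining one, Mrps36, is no ribosomal protein in mammals but a part of the 2-oxoglutarate dehydrogenase complex.

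RNA was measured in 15 whole hearts, each a library of its own, and hearts are named by group and replicate number (WT TAC 2). There were 4 SIRT5OE TAC hearts, 3 SIRT5OE sham, 4 WT TAC and 4 WT sham hearts. The mice were male littermates of 4 to 8 months. Transverse aortic constriction (TAC) narrows the aorta and overloads the left ventricle with pressure, sham mice had surgery without it, and hearts were taken 4 weeks later. SIRT5 is a deacylase with target proteins in mitochondria, cytosol, peroxisomes and nucleus. SIRT5OE mice carry a cDNA for it behind the constitutive CAGGS promoter in the Col1A1 locus. A STOP sequence before that cDNA had been removed with Sox2-Cre, so all tissues overexpress SIRT5 and not cardiomyocytes alone, and the line comes from 1 ES cell clone. WT mice lack the cassette.

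Sirt5 stood at 2028 to 2366 normalized counts in WT sham and 1574 to 2113 in WT TAC hearts, while SIRT5OE sham hearts held 38589 to 42058 and SIRT5OE TAC hearts 30433 to 43932, so every heart matched its genotype label. The deposited counts of a heart summed to 56233957 to 74282028. Transcripts of the mitochondrial genome took 33.8% to 36.2% of them in sham hearts, 19.8% to 27.2% in WT TAC and 27.9% to 35.0% in SIRT5OE TAC hearts. SIRT5OE TAC 3 had the lowest of these shares and the highest summed fibroblast markers of its group, and counts of called genes that rest on it are given with it left out as well. All 7 cardiomyocyte markers were measured. Of the atrial markers only Myl7 and Myl4 were measured, with a sum of 65.2 to 107 normalized counts in WT sham hearts, against 2439340 to 2900790 for the cardiomyocyte markers. Atrial transcripts were therefore scarce in tissue that the labels call heart.

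Genes of this kind often have promoters without a TATA box, with sites for the factors NRF1, YY1 and ETS proteins such as GABP, which are known to drive nuclear genes of mitochondrial proteins. RefSeq gave a promoter window for 69 of the 78 genes, covering 250 bases before to 50 after the gene start on GRCm38.p6. On either strand, the ETS core CCGGAAG was found in windows of 26 of the 69 genes (37.7%), against 17.4% of the 12122 kept genes that had a window and 8.86% of all 32851 windows. The YY1 letters AAGATGGC were found in 12 genes (17.4%, against 4.56% of kept genes and 2.75% of windows). The NRF1 letters GCGCATGC were found in 8 genes (11.6%, against 5.24% and 2.71%). The SP1 letters GGGCGG were found in 49.3% of the genes, against 63.3% of kept genes and 35.7% of windows. TATAAA was found in 7.25% of the genes, against 10.3% of kept genes and 13.6% of windows. The NF-Y letters CCAAT were found in 39.1% of the genes, against 42.4% of kept genes and 37.4% of windows. The ERR letters AAGGTCA were found in 5.80%, against 4.02% and 4.72%. The E-box CACGTG was found in 7.25%, against 10.99% and 7.15%. GCGCATGC and its reverse complement overlap in part, and such overlapping matches were counted once per gene. These matches describe letters in a window and were not tested.

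Windows of members that the results turn on are printed to show how differently these promoters are built. Mrpl39 (chr16:84735195-84735494, minus strand) and Mrpl50 (chr4:49521034-49521333, minus strand) had the smallest adjusted p among members lower after TAC. Mrps18b (chr17:35916391-35916690, minus strand) and Mrps23 (chr11:88204138-88204437, plus strand) were among the members higher after TAC. Mrps11 (chr7:78782881-78783180, plus strand) and Mrpl46 (chr7:78783040-78783339, minus strand) are members that start from opposite strands of the same stretch, and their windows share 141 bases. Sequences run 5′ to 3′ on the strand of the gene. Capitals mark matches of the NRF1, ETS or YY1 letters on either strand.
Mrpl39: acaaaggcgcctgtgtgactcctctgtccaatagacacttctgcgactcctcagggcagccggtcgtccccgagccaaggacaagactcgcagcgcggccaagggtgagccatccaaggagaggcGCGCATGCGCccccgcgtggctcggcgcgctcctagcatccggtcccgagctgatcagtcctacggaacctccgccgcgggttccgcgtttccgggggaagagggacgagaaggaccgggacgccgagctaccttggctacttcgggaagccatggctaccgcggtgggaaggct
Mrpl50: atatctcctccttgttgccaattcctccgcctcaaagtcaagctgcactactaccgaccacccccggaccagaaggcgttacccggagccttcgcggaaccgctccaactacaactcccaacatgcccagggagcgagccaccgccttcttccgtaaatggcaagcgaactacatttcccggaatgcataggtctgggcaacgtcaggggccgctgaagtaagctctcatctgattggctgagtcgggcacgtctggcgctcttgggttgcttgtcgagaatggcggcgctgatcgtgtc
Mrps18b: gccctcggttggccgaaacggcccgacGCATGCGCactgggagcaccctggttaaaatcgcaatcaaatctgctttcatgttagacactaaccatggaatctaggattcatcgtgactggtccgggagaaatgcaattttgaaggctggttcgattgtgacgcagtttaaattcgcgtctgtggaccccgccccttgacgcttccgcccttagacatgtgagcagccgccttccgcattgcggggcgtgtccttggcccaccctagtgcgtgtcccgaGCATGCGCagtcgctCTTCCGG
Mrps23: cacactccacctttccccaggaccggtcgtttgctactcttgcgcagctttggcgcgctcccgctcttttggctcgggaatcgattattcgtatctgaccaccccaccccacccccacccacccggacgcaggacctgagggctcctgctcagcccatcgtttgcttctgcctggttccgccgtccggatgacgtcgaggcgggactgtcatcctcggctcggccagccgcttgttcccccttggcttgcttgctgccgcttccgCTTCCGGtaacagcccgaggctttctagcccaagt
Mrps11: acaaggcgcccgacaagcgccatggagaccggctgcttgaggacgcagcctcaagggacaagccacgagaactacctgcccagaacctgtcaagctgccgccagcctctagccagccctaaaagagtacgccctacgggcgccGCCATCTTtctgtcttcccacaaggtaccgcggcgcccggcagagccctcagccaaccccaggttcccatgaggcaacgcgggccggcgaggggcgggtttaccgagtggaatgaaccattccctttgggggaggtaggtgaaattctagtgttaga
Mrpl46: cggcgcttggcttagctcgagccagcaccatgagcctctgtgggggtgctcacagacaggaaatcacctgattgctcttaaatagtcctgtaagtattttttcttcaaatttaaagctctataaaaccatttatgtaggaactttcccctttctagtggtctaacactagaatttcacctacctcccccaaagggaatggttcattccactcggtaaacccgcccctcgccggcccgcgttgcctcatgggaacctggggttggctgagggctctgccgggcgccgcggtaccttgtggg
The capitals in Mrpl39 are 2 NRF1 matches, from bases 126 and 128, that overlap each other. In Mrps18b they are NRF1 matches from bases 28 and 279 and an ETS match from base 294. The capitals in Mrps23 are an ETS match from base 266, and those in Mrps11 a YY1 match from base 144. No match stood in the windows of Mrpl50 or Mrpl46. ETS matches were found in 8 of 27 members that were lower after TAC in WT hearts and had a window, in 2 of 3 that were higher and in 16 of 39 others.

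The 78 genes lie on 17 chromosomes of GRCm38 in the GENCODE vM21 annotation. Chromosome 11 carries 11 of them, chromosome 17 carries 8 and chromosome 6 carries 7. In WT sham hearts their levels per transcript length spread widely. Mrpl42, a large-subunit protein found only in mitochondria, had the highest level at 20328 ± 920.3 normalized counts per kb (SD, n = 4). Mrpl30 followed with 9936 ± 534 and Mrpl33, a large-subunit protein with a bacterial counterpart, with 8128 ± 731 normalized counts per kb (SD, n = 4). At the low end were Mrpl19 with 373 ± 66.8, Mrpl57 with 329.8 ± 20.6 and Mrpl23 with 319.8 ± 60.5 normalized counts per kb (SD, n = 4). Mrpl42 stood above Mrpl30 by more than the spread of either, whereas the SD ranges of the 3 lowest genes overlapped. The length is the median of the gene's protein-coding transcripts, so these levels rest on which transcripts the heart uses. The level of Mrpl23 is uncertain, because its pseudogene Mrpl23-ps1 matches it at 100% identity over 93.1% of the pseudogene and held 2312 ± 83.9 (SD, n = 4) normalized counts in WT sham hearts, against 221 ± 41.9 (n = 4, SD) for Mrpl23 itself.

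**Figure D1:**
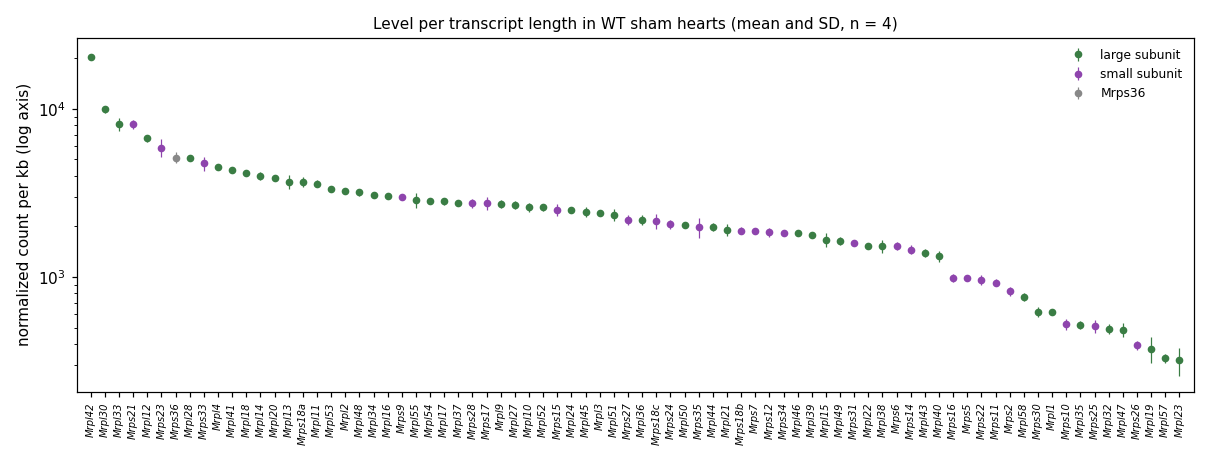
Normalized count per kb of transcript in WT sham hearts for the 78 genes, on a log axis, ordered from highest to lowest; points are means and bars SD over 4 hearts, with color for the subunit. Mrpl42 stands alone at the top with 20328 normalized counts per kb, and Mrpl23 is lowest at 319.8.

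Between the sham groups, the comparison that asks what SIRT5 overexpression does without overload, no gene of the 78 passed an adjusted p under 0.05 in either direction. Over all 16690 rows, 0.018% were called higher in SIRT5OE sham than in WT sham hearts and 0% lower. The test shares its spread with the TAC hearts, which varied more in these genes than the sham hearts did. At an unadjusted p under 0.05 there were 5 of the 78, and 2.56% of all genes. These were Mrpl15, Mrpl19 and Mrpl24 of the large subunit and Mrps16 and Mrps33 of the small subunit, named here after their values were seen. The log2 fold change was below zero for 66 of the 78 (84.6%, against 50.2% of all genes), but small, with a median of -0.076 (all genes -0.00068) and a range from -0.45 for Mrpl19 to 0.19. In 11 genes every SIRT5OE sham heart lay below every WT sham heart and in 4 above, while over all genes 3.67% and 3.73% were separated in these ways. Leaving out each heart in turn moved the median between -0.12 and -0.05.

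After TAC, more of these genes fell than rose in WT hearts in the deposited scale. When each heart was scaled to the same total, 17 were higher and 6 lower, and the median of all genes rose too. The share of all rows called under that scaling was not counted, so 17 and 6 cannot be set against it. In the deposited scale, of the 78, 29 were lower (37.2%, against 16.5% of all 16690 rows), 4 were higher (5.13%, against 17.3% of all rows) and 45 did not pass an adjusted p under 0.05. The median log2 fold change was -0.22 (all genes -0.012), the changes ran from -0.85 to 0.47, and none passed an absolute log2 fold change of 1. The log2 fold change was below zero for 64 of the 78 (82.1%, against 51.0% of all genes). In 24 genes every WT TAC heart lay below every WT sham heart and in 5 above, against 15.5% and 16.2% of all genes. Across these comparisons, hearts are bulk tissue, where fewer cells of a type and less RNA per cell cannot be told apart. A fit that omitted WT TAC 2 left 15 lower. The number higher was 2 in fits that omitted WT TAC 1, or WT sham 1, 2 or 3, or SIRT5OE sham 2 or 3.

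Both subunits took part. Of the 51 large-subunit genes 17 were lower and 1 was higher, with a median log2 fold change of -0.22. Of the 26 small-subunit genes 11 were lower and 3 were higher, with a median of -0.24. Among the 45 proteins with a bacterial counterpart 13 were lower and 1 was higher (median -0.21), and among the 32 found only in mitochondria 15 were lower and 3 were higher (median -0.29). No difference between these classes was tested.

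**Figure D2:**
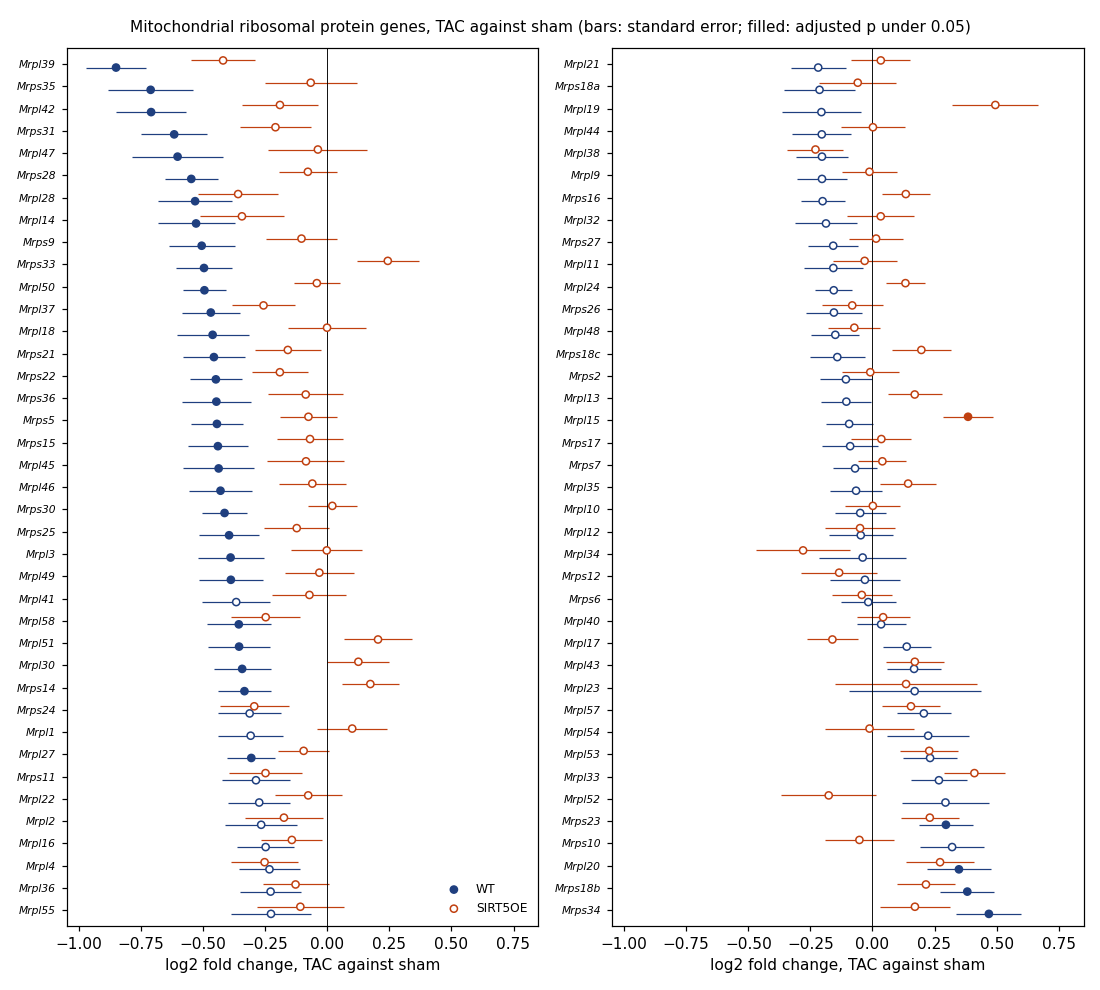
Log2 fold change of TAC against sham for each of the 78 genes in WT (blue) and SIRT5OE (orange) hearts, ordered by the WT value; bars are standard errors from limma and filled points have an adjusted p under 0.05. The WT values run from -0.85 for Mrpl39 to 0.47 for Mrps34, with 33 filled points, and 1 SIRT5OE point is filled, that of Mrpl15.

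Mrpl39, a large-subunit protein found only in mitochondria (chr16:84717576-84735742, 10 exons), had the smallest adjusted p of the genes that fell. Its normalized counts were 4158, 3994, 4111 and 4085 in WT sham and 2243, 1845, 2904 and 2190 in WT TAC hearts. The lowest WT sham heart stood well above the highest WT TAC heart. In SIRT5OE sham hearts Mrpl39 had 4017, 3778 and 3824 and in SIRT5OE TAC hearts 3323, 2762, 2450 and 3118 normalized counts, again without overlap. The log2 fold change after TAC was -0.85 (SE 0.12, adjusted p = 0.000119) in WT hearts.

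Mrpl50, another large-subunit protein found only in mitochondria (chr4:49512596-49521093), had 4292, 4239, 4359 and 4433 normalized counts in WT sham and 3229, 2878, 3510 and 2730 in WT TAC hearts. Here too the WT groups did not overlap, and the log2 fold change was -0.50 (SE 0.09, adjusted p = 0.000526). The SIRT5OE sham hearts held 4297, 3936 and 3881 and the SIRT5OE TAC hearts 4260, 3682, 3701 and 4056, which overlapped. Mrps28, the small-subunit counterpart of bacterial protein S1 (chr3:8802146-8923918), had 2072, 2027, 2306 and 2173 normalized counts in WT sham and 1508, 1179, 1701 and 1522 in WT TAC hearts. Every WT TAC heart was below every WT sham heart, with a log2 fold change of -0.55 (SE 0.11, adjusted p = 0.00116). In SIRT5OE hearts Mrps28 held 2065, 1834 and 1913 after sham surgery and 2061, 1775, 1666 and 1851 after TAC, and these groups overlapped.

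Mrpl42, the most abundant gene of the family per kb, fell from 13437 ± 608 (n = 4, SD) to 8384 ± 2025 (n = 4, SD) normalized counts in WT hearts (log2 fold change -0.71, SE 0.14, adjusted p = 0.00139). Mrps31, a small-subunit protein found only in mitochondria, fell from 2417 ± 113 (n = 4, SD) to 1602 ± 345 (n = 4, SD) (log2 fold change -0.62, SE 0.13, adjusted p = 0.00235). Mrps30, a large-subunit protein despite its name, fell from 2057 ± 141 (n = 4, SD) to 1544 ± 118 (n = 4, SD) (log2 fold change -0.41, SE 0.09, adjusted p = 0.00261). The spread between hearts was wider after TAC than after sham surgery for Mrpl42 and Mrps31, with WT TAC 2 and WT TAC 4 lowest in both. The other 23 genes that fell had log2 fold changes from -0.71 (Mrps35) to -0.31 (Mrpl27). They included Mrpl3 at -0.39 and Mrps22 at -0.45, whose loss in humans is known to cause respiratory chain deficiency.

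The 4 genes that rose were Mrps34, Mrps18b and Mrps23 of the small subunit and Mrpl20 of the large subunit. Mrps34, found only in mitochondria (chr17:24895116-24897502), had 1688, 1727, 1660 and 1649 normalized counts in WT sham and 2523, 1940, 2144 and 2794 in WT TAC hearts. The groups did not overlap, and the log2 fold change was 0.47 (SE 0.13, adjusted p = 0.0118). In SIRT5OE hearts Mrps34 held 1830, 1832 and 1857 after sham surgery and 2695, 1817, 2170 and 1731 after TAC, where SIRT5OE TAC 1 was far above SIRT5OE TAC 2 and 4. An exon of Mapk8ip3 overlaps Mrps34 on the opposite strand, and whether reads were counted by strand was not given.

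Mrps18b had 1489, 1422, 1557 and 1585 normalized counts in WT sham and 1947, 1768, 1854 and 2363 in WT TAC hearts, without overlap, and a log2 fold change of 0.38 (SE 0.11, adjusted p = 0.0131). In SIRT5OE hearts it held 1436, 1378 and 1412 after sham surgery and 1863, 1385, 1811 and 1531 after TAC, and these overlapped. Mrps23 had 3776, 3597, 3714 and 4607 normalized counts in WT sham and 4947, 4308, 5561 and 4455 in WT TAC hearts. WT sham 4 lay within the range of the WT TAC hearts, and the log2 fold change was 0.30 (SE 0.11, adjusted p = 0.0442). The SIRT5OE hearts held 4139, 3372 and 3454 Mrps23 counts after sham surgery and 4584, 3789, 4506 and 4254 after TAC, with overlap. Mrpl20, which has a bacterial counterpart, rose from 1909 ± 60.5 (n = 4, SD) to 2443 ± 296 (n = 4, SD) (log2 fold change 0.35, SE 0.13, adjusted p = 0.0462). The calls of Mrps23 and Mrpl20 lay close to the threshold. That of Mrps23 ended in fits that omitted WT TAC 1 or 3, WT sham 1, 2 or 3, SIRT5OE TAC 4, or SIRT5OE sham 2 or 3, with adjusted p from 0.0518 to 0.119 over all alternatives that ended it. That of Mrpl20 ended in fits that omitted any 1 sham heart, or WT TAC 1, 2 or 4, with adjusted p from 0.0512 to 0.131.

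**Figure D3:**
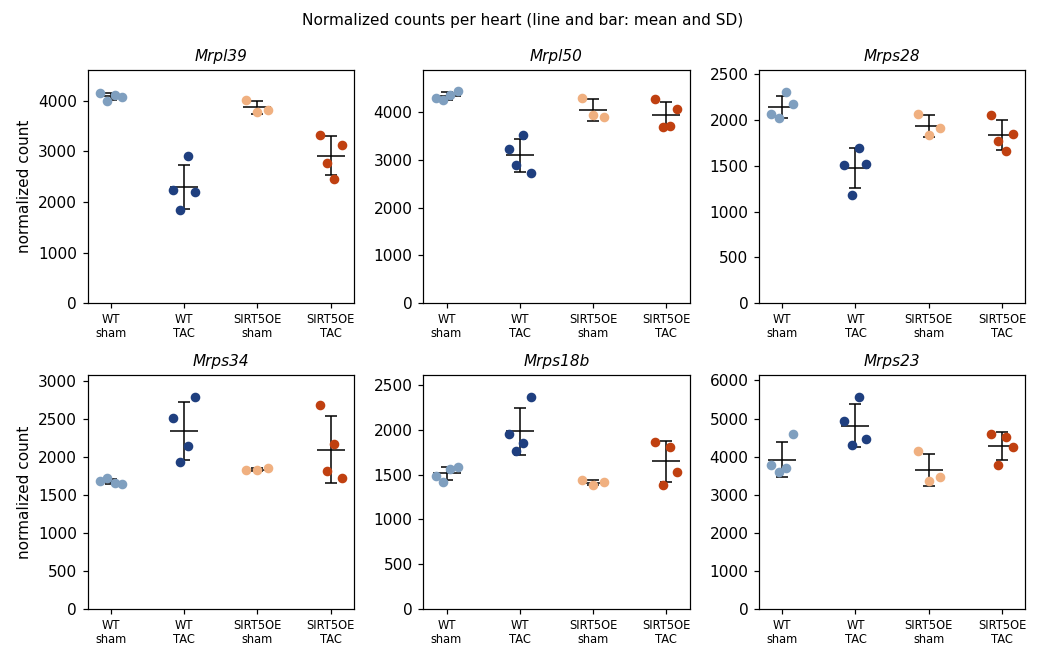
Normalized counts in each of the 15 hearts for the 3 genes of smallest adjusted p that fell (Mrpl39, Mrpl50, Mrps28) and the 3 that rose (Mrps34, Mrps18b, Mrps23) in WT hearts after TAC; points are hearts, and lines with bars are means and SD. For Mrpl39 the WT TAC hearts lie between 1845 and 2904, below the WT sham hearts at 3994 to 4158.

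Of the 3 paralogs of bacterial protein S18, Mrps18b rose. Mrps18a, which sits in the large subunit, had a log2 fold change of -0.21 (SE 0.14, adjusted p = 0.269) and Mrps18c, which takes the place of S18 in the small subunit, -0.14 (SE 0.11, adjusted p = 0.345) in WT hearts. Whether the paralogs differ from each other was not tested. Mrps18a stood at 2758 ± 193 (n = 4, SD) and 2421 ± 515 (n = 4, SD) normalized counts in WT sham and WT TAC hearts, and Mrps18c at 1367 ± 141 (n = 4, SD) and 1237 ± 94.9 (n = 4, SD). Mrps36, the subunit of 2-oxoglutarate dehydrogenase, fell from 3260 ± 245 (n = 4, SD) to 2427 ± 501 (n = 4, SD) (log2 fold change -0.45, SE 0.14, adjusted p = 0.021). Its call ended in fits that omitted WT sham 3 (adjusted p = 0.059) or WT TAC 2 (adjusted p = 0.0707), and with each heart scaled to the same total (adjusted p = 0.290). Mrpl12, which also binds the mitochondrial RNA polymerase, stood at 8779 ± 422 (n = 4, SD) and 8605 ± 1552 (n = 4, SD) with a log2 fold change of -0.05 (SE 0.13, adjusted p = 0.812). Mrpl58, a peptidyl-tRNA hydrolase built into the large subunit, fell from 1921 ± 108 (n = 4, SD) to 1519 ± 277 (n = 4, SD) (log2 fold change -0.36, SE 0.13, adjusted p = 0.042). The call of Mrpl58 ended in fits that omitted WT TAC 2 or 4, WT sham 1, 3 or 4, or any 1 SIRT5OE sham heart, with adjusted p from 0.0529 to 0.134. It also ended with no filter, no mean-variance trend, the compared groups alone and the same total outside the mitochondrial genome, and adjusted p was 0.671 with the same total.

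The divergent pair Mrpl46 and Mrps11, whose promoter windows are printed above, can be set side by side. Mrpl46 fell from 2070 ± 48.7 (n = 4, SD) to 1560 ± 330.0 (n = 4, SD) normalized counts in WT hearts (log2 fold change -0.43, SE 0.13, adjusted p = 0.0153). Mrps11 stood at 978 ± 49.7 (n = 4, SD) and 814 ± 166 (n = 4, SD), with a log2 fold change of -0.29 (SE 0.14, adjusted p = 0.115). An exon of Mrpl46 overlaps Mrps11, so reads of the pair may not be separable. In all, 17 of the 78 genes have a coding-transcript exon that meets an exon of a measured gene on the opposite strand, among them Mrpl36 with Ndufs6, Mrpl43 with Twnk and Mrpl18 with Tcp1.

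The hearts of a group did not move as a block. The median log2 difference of the 78 genes from the WT sham mean was -0.16, -0.52, -0.047 and -0.19 in WT TAC 1 to 4, and -0.078 to 0.042 in the WT sham hearts. WT TAC 2 held the lowest value of its group in 63 of the 78 genes and the highest in 0, whereas WT TAC 3 held the highest in 46. In SIRT5OE TAC 1 to 4 the median difference was 0.11, -0.22, -0.21 and -0.094, and SIRT5OE TAC 1 held the highest value of its group in 68 genes and the lowest in 0. The SIRT5OE sham hearts were at -0.00028, -0.12 and -0.098. The coefficient of variation of a gene over the hearts of a group had a median of 5.65% in WT sham, 5.26% in SIRT5OE sham, 16.2% in WT TAC and 13.0% in SIRT5OE TAC hearts. Over all genes the medians of single hearts stayed between -0.0061 and 0.0097.

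Summed over the 78 genes, the normalized counts ran from 156555 in WT TAC 2 to 242370 in SIRT5OE TAC 1. Per 1000000 counts outside the mitochondrial genome, the sum was 4728 to 4913 in WT sham and 3613 to 4837 in WT TAC hearts, and among SIRT5OE hearts 4548 to 4665 after sham surgery and 4266 to 5139 after TAC. Per 1000000 of all counts, which include the transcripts of the mitochondrial genome, it was 3040 to 3133 in WT sham and 2784 to 3520 in WT TAC hearts. The scale therefore decided the direction of the sums. When each heart was scaled to the same total, the median log2 fold change of the 78 genes in WT hearts was 0.068, while that of all genes rose to 0.28. Of the 78, 17 were then higher and 6 lower, in place of 4 and 29, with no share of all rows counted. Relative to all genes the median stood at -0.21 on the deposited scale and -0.21 after that scaling.

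**Figure D4:**
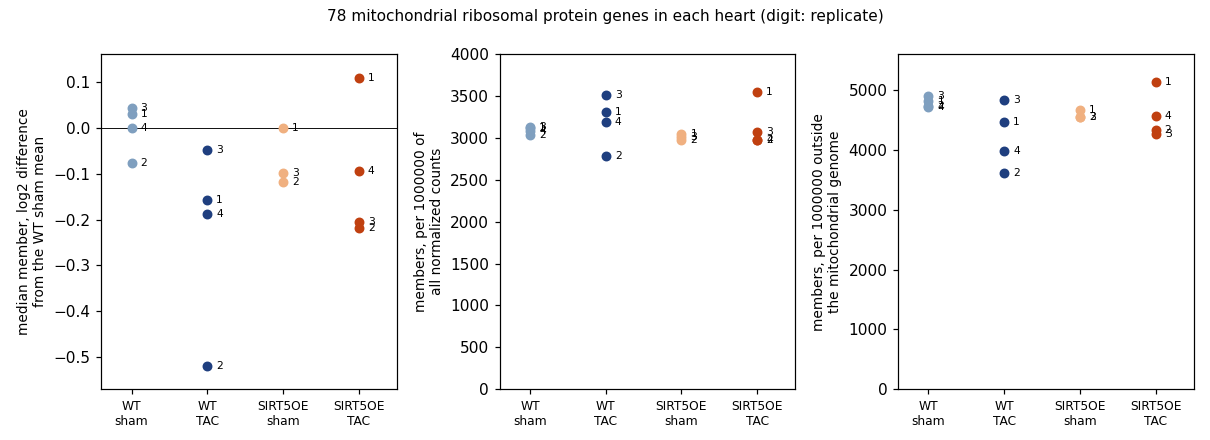
Each heart by group, with its replicate number: on the left the median log2 difference of the 78 genes from the WT sham mean, in the middle their summed counts per 1000000 of all normalized counts, and on the right per 1000000 outside the mitochondrial genome. WT TAC 2 is lowest at -0.52 on the left, and SIRT5OE TAC 1 is highest at 0.11.

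In SIRT5OE hearts, where the same overload was applied with SIRT5 overexpressed, 1 of the 78 genes was higher after TAC (1.28%, against 3.12% of all 16690 rows) and 0 were lower (against 1.86%). At an unadjusted p under 0.05 there were 6, and 21.8% of all genes. The median log2 fold change was -0.043 (all genes -0.013), the range -0.42 to 0.49, and 48 of the 78 were below zero. Groups did not overlap in 4 genes that were lower and 6 that were higher, against 11.8% and 12.6% of all genes. The gene that rose was Mrpl15, a large-subunit protein with a bacterial counterpart. Mrpl15 had 2816, 2397 and 2597 normalized counts in SIRT5OE sham and 3564, 2998, 3603 and 3440 in SIRT5OE TAC hearts, without overlap, and a log2 fold change of 0.38 (SE 0.10, adjusted p = 0.0403). In WT hearts it held 3016, 2869, 3566 and 3119 after sham surgery and 3137, 2616, 2927 and 3087 after TAC, with a log2 fold change of -0.09 (SE 0.09, adjusted p = 0.47). The call of Mrpl15 ended in fits that omitted any 1 SIRT5OE sham heart, SIRT5OE TAC 1, 3 or 4, or WT sham 1 or 4, with adjusted p from 0.0535 to 0.159. A fit that omitted SIRT5OE TAC 2 gave 2 genes higher. Fits that omitted WT TAC 2 or 3, which enter through the shared spread, gave 1 lower.

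Genes named for their fall in WT hearts did not pass the test here. Mrpl39 had a log2 fold change of -0.42 (SE 0.13, adjusted p = 0.0716) in SIRT5OE hearts, the lowest of the 78. Mrpl50 had -0.04 (SE 0.09, adjusted p = 0.835) and Mrps28 -0.08 (SE 0.12, adjusted p = 0.739). Mrpl42, Mrps31 and Mrps30 had -0.19, -0.21 and 0.02. The test of the difference between the genotypes, the interaction of genotype and TAC, called 0% of all 16690 rows higher and 0% lower, and 0 of the 78 in either direction. Its smallest adjusted p among the 78 was 0.349, and 0.265 over all genes. At an unadjusted p under 0.05 there were 17 of the 78, and 13.2% of all genes. The interaction was above zero for 61 of the 78, with a median of 0.19 (all genes -0.0035), and moved between 0.09 and 0.27 when each heart was left out in turn. With each heart scaled to the same total that median was -0.022, against -0.22 for all genes. A larger fall in WT than in SIRT5OE hearts was thus not shown for any single gene of the family.

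Between the TAC groups, the comparison of overloaded hearts with and without SIRT5 overexpression, 4 of the 78 genes were higher in SIRT5OE TAC (5.13%, against 3.8% of all 16690 rows) and 1 was lower (1.28%, against 3.43%). At an unadjusted p under 0.05 there were 23, and 28.9% of all genes. The log2 fold change was above zero for 56 of the 78, with a median of 0.12 (all genes 0.00047) and a range from -0.38 to 0.48. The groups did not overlap in 3 genes that were higher and 0 that were lower, against 4.06% and 3.94% of all genes. With each heart scaled to the same total, 0 were higher and 5 lower, and the median was -0.052 against -0.17 for all genes. The share of all rows called was not counted there.

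The genes higher in SIRT5OE TAC were Mrps30, Mrpl50, Mrps33 and Mrpl3, and all 4 were among those that fell after TAC in WT hearts. Both comparisons use the same WT TAC hearts. Mrps30 had 1637, 1374, 1558 and 1609 normalized counts in WT TAC and 2213, 1786, 1967 and 2145 in SIRT5OE TAC hearts, without overlap, and a log2 fold change of 0.39 (SE 0.09, adjusted p = 0.0331). Its sham hearts held 2181, 1873, 2154 and 2020 in WT and 2076, 1932 and 1974 in SIRT5OE mice. For Mrpl50, whose counts are given above, the TAC groups did not overlap either, and the log2 fold change was 0.35 (SE 0.09, adjusted p = 0.0345).

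Mrps33, a small-subunit protein found only in mitochondria, had 2551, 2541, 2667 and 1932 normalized counts in WT TAC and 3732, 3175, 3108 and 3269 in SIRT5OE TAC hearts, without overlap, and a log2 fold change of 0.46 (SE 0.11, adjusted p = 0.0345). Its sham hearts held 3437, 3197, 3846 and 3137 in WT and 3243, 2525 and 2674 in SIRT5OE mice. The pseudogene Gm5776 matches Mrps33 at 99.7% identity and held 421 ± 41.6 (SD, n = 4) normalized counts in WT sham and 258.0 ± 120.4 in WT TAC hearts, so the split of reads between them is uncertain. Mrpl3, a large-subunit protein with a bacterial counterpart, stood at 4303 ± 1012 (n = 4, SD) in WT TAC and 5909 ± 720.1 (n = 4, SD) in SIRT5OE TAC hearts, with a log2 fold change of 0.48 (SE 0.13, adjusted p = 0.0441). The gene lower in SIRT5OE TAC was Mrpl17, a large-subunit protein with a bacterial counterpart. Mrpl17 had 2173, 2089, 2441 and 2528 normalized counts in WT TAC and 2165, 1702, 1809 and 1636 in SIRT5OE TAC hearts, where SIRT5OE TAC 1 lay within the WT TAC range, and a log2 fold change of -0.34 (SE 0.10, adjusted p = 0.0469). In sham hearts it held 2251, 2004, 2027 and 2088 in WT and 2091, 1962 and 2047 in SIRT5OE mice.

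These 5 calls rest on few hearts. In fits that omitted SIRT5OE TAC 1, 2 or 4, or WT TAC 2 or 4, 0 genes were higher. A fit that omitted SIRT5OE TAC 3 gave 11, and one that omitted WT TAC 3 gave 17. The share of all rows called in these fits was not counted, and the counts of other lists rose in them too, as given below. A rise particular to these genes is therefore not shown. The number lower was 0 in fits that omitted any 1 sham heart, SIRT5OE TAC 2 or 4, or WT TAC 1, 2 or 4, and 2 in the fit that omitted WT TAC 3. Both numbers were 0 when the TAC groups were fitted alone. The SE and adjusted p given above instead share their spread with the sham hearts, which varied less in these genes.

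The machinery around the mitoribosome was described from further lists, each by its counts and its median with no test of the list. Of all 16690 rows, 16.5% were lower and 17.3% higher in WT hearts after TAC. After TAC in WT hearts, 2 of 5 mitoribosome proteins under other names were lower and 0 higher (median -0.18). Dap3 and Ptcd3, both of the small subunit, had log2 fold changes of -0.50 (SE 0.09, adjusted p = 0.000944) and -0.64 (SE 0.13, adjusted p = 0.00132). Of 27 genes of mitoribosome assembly and ribosomal RNA modification 11 were lower and 0 higher (median -0.37). Eral1, a chaperone of the small-subunit ribosomal RNA, had -0.48 (SE 0.10, adjusted p = 0.00144), and Gtpbp10, a GTPase of large-subunit assembly, -0.62 (SE 0.13, adjusted p = 0.00158). Of 15 measured genes of translation factors and mRNA handling 6 were lower and 0 higher (median -0.25). Lrpprc, which stabilizes mitochondrial mRNAs, had -0.79 (SE 0.14, adjusted p = 0.000541) and Mtif2, the initiation factor that brings in the first tRNA, -0.56 (SE 0.14, adjusted p = 0.00758). Of 17 mitochondrial aminoacyl-tRNA synthetases 7 were lower and 0 higher (median -0.33), with Hars2 at -0.46 (SE 0.09, adjusted p = 0.00119) and Cars2 at -0.58 (SE 0.14, adjusted p = 0.00484). Of 10 genes of mitochondrial transcription and mtDNA maintenance 6 were lower and 0 higher (median -0.50). Twnk, the mtDNA helicase, had -0.54 (SE 0.09, adjusted p = 0.000441) and Mgme1, an exonuclease of mtDNA, -0.76 (SE 0.15, adjusted p = 0.000992).

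The mRNAs that the mitoribosome translates fell too. Of the 13 mRNAs of the mitochondrial genome 12 were lower and 0 higher in WT hearts after TAC, with a median log2 fold change of -0.87. Their summed normalized counts were 25156200 to 26912400 in WT sham and 11723500 to 16758200 in WT TAC hearts. The mRNAs of smallest adjusted p were mt-Nd6 with -0.86 (SE 0.15, adjusted p = 0.000639) and mt-Nd4l with -1.01 (SE 0.20, adjusted p = 0.00116), both for subunits of complex I. Of 37 genes listed by their Nduf names as nuclear-encoded complex I subunits, 33 were lower and 0 higher (median -0.55). Ndufa4, which is among them, is a complex IV subunit despite its name, and the list is called complex I subunits below. Ndufs1 had -0.90 (SE 0.13, adjusted p = 0.000129) and Ndufa4 -0.68 (SE 0.11, adjusted p = 0.000373). Of 81 cytosolic ribosomal proteins 19 were higher (23.5%, against 17.3% of all rows) and 1 was lower (median 0.22), and fits that omitted WT TAC 4, WT sham 2 or WT sham 4 left 7, 10 and 11 higher. Of the translation factors 10 were lower in a fit that omitted WT TAC 3. Rpl3 had 1.36 (SE 0.20, adjusted p = 0.000145) and Rpl12 0.90 (SE 0.19, adjusted p = 0.00205), while Rpl3l, the muscle paralog of Rpl3, fell with -2.02 (SE 0.38, adjusted p = 0.000797). Scaling each heart to the same total moved the median of all genes from -0.012 to 0.28. It left 1 of 27 assembly genes lower and 2 higher, 1 of 15 translation factors, 0 of 17 synthetases, 2 of 10 genes of transcription and mtDNA maintenance and 14 of 37 complex I subunits lower, but 12 of 13 mitochondrial mRNAs lower and 70 of 81 cytosolic ribosomal proteins higher. It turned the medians of the proteins under other names (0.11) and of the translation factors (0.039) above zero, while the other 6 lists kept their sign.

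In SIRT5OE hearts after TAC, 0 of the 13 mitochondrial mRNAs were called (median -0.16). Of 37 complex I subunits 1 was lower (2.70%, against 1.86% of all rows, median -0.16), Ndufv1 with -0.50 (SE 0.13, adjusted p = 0.042). Mgme1 fell in this genotype too, with -0.70 (SE 0.16, adjusted p = 0.0212). Lars2, the mitochondrial leucyl-tRNA synthetase, rose from 223777 ± 76743 (n = 3, SD) to 521215 ± 187877 (n = 4, SD) normalized counts (log2 fold change 1.19, SE 0.30, adjusted p = 0.0331). WT hearts held 519771 ± 135695 (n = 4, SD) after sham surgery and 568490 ± 85229 (n = 4, SD) after TAC, so the mean was lowest in SIRT5OE sham hearts. In SIRT5OE TAC hearts the Lars2 mean was above the summed counts of all the mitochondrial ribosomal protein genes, which were 191502 to 242370. Whether all counts under Lars2 came from its own mRNA was not tested, so its change may not be one of that mRNA. The call of Lars2 ended in fits that omitted SIRT5OE sham 2 or 3 or SIRT5OE TAC 3 or 4. Of the cytosolic ribosomal proteins 4 were higher (4.94%, against 3.12% of all rows), with Rpl35 at 1.18 (SE 0.20, adjusted p = 0.00548) and Rpl39 at 0.77 (SE 0.15, adjusted p = 0.0122). When SIRT5OE TAC 3 was omitted, 0 mitochondrial mRNAs, 0 complex I subunits, 0 synthetases and 0 genes of mtDNA maintenance were called, and 2 cytosolic ribosomal proteins were higher. The complex I call also ended in fits that omitted any 1 sham heart, SIRT5OE TAC 2 or 4 or WT TAC 1, and that of Mgme1 in fits that omitted any 1 SIRT5OE sham heart. Fits that omitted SIRT5OE sham 2 or 3 left 1 cytosolic ribosomal protein higher.

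Between the TAC groups, 3 of the 13 mitochondrial mRNAs were higher in SIRT5OE (23.1%, against 3.8% of all rows). Among them were mt-Atp8, for a subunit of ATP synthase, with 1.15 (SE 0.25, adjusted p = 0.032) and mt-Nd6 with 0.60 (SE 0.15, adjusted p = 0.0367). Of the 37 genes listed as complex I subunits 5 were higher (13.5%), led by Ndufab1 with 0.76 (SE 0.16, adjusted p = 0.0289) and Ndufa4, of complex IV, with 0.47 (SE 0.11, adjusted p = 0.0342). Of the translation factors 3 were higher (20%), with Guf1 at 0.40 (SE 0.09, adjusted p = 0.0337) and Mtif2 at 0.59 (SE 0.14, adjusted p = 0.0345). Tfb2m, a factor of mitochondrial transcription initiation, had 0.56 (SE 0.12, adjusted p = 0.0317). Of the cytosolic ribosomal proteins 3 were lower in SIRT5OE TAC (3.70%), close to the 3.43% of all rows. Among them were Rpl18 with -0.46 (SE 0.10, adjusted p = 0.0325) and Rpl3 with -0.76 (SE 0.20, adjusted p = 0.0367). These counts depended on single hearts. When SIRT5OE TAC 3 was omitted, 8 mitochondrial mRNAs, 11 complex I subunits and 5 translation factors were higher, and 8 cytosolic ribosomal proteins were lower. A fit that omitted WT TAC 3 gave 9, 17 and 7 higher and 17 lower, and in fits that omitted SIRT5OE TAC 2 or 4 or WT TAC 2 or 4 all of these counts were 0. The interaction called 0 genes of any list, so a difference between the genotypes in the response to TAC was not shown for them.

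**Figure D5:**
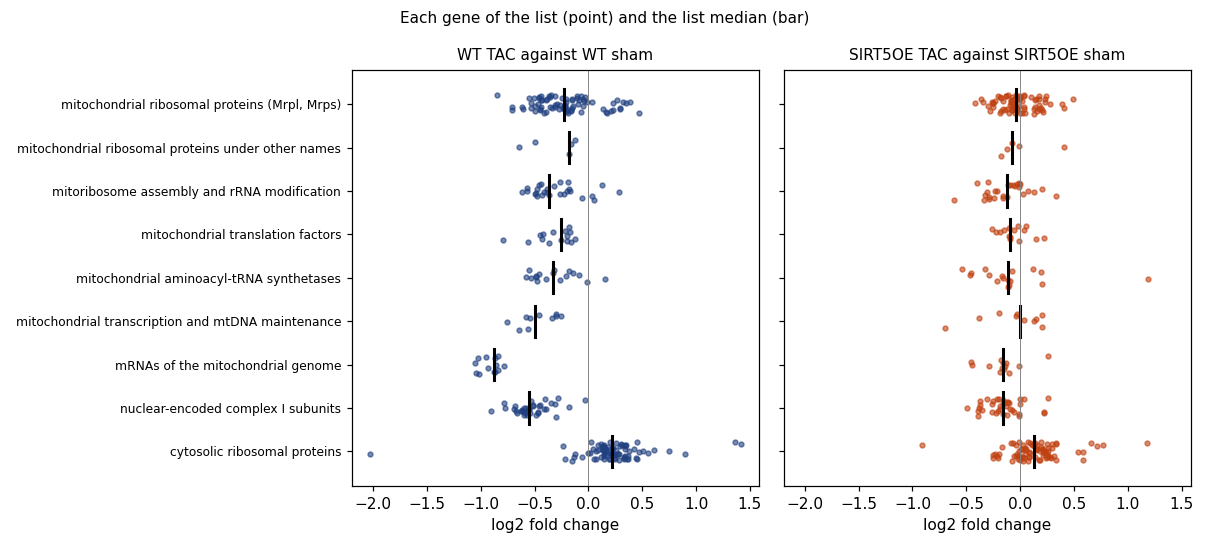
Log2 fold change of TAC against sham in WT (left) and SIRT5OE (right) hearts for each gene (points) of the 78 mitochondrial ribosomal protein genes and 8 further lists, with the median of each list as a bar. The WT medians run from -0.87 for the mRNAs of the mitochondrial genome to 0.22 for cytosolic ribosomal proteins, with the 78 genes at -0.22.

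Markers of some cell types in the heart also changed after TAC. Of all rows, 16.5% were lower and 17.3% higher after TAC in WT hearts, and 1.86% and 3.12% in SIRT5OE hearts. The summed normalized counts of 7 cardiomyocyte markers were 2439340 to 2900790 in WT sham and 1043400 to 1991990 in WT TAC hearts, with 5 lower and 1 higher, and in SIRT5OE mice 2391710 to 2591820 after sham surgery and 1661750 to 2349650 after TAC, where the lowest value with SIRT5OE TAC 3 left out was 2113312. Of 7 fibroblast markers 6 were higher after TAC in WT hearts, and their sum went from 91261 to 103503 in sham to 132202 to 187427 in TAC hearts. In SIRT5OE hearts that sum was 93528 to 107991 after sham surgery and 111686 to 167919 after TAC, or 111686 to 125446 with SIRT5OE TAC 3 left out. Of 6 macrophage markers 5 were higher in WT hearts, with sums of 5773 to 7136 after sham surgery and 9650 to 11335 after TAC, and 5547 to 6499 and 7132 to 9878 in SIRT5OE hearts. Of 6 endothelial markers 1 was lower and of 6 mural markers 2 were higher in WT hearts after TAC, and of 3 erythroid markers 0 were called. In SIRT5OE hearts 4 fibroblast markers and 1 macrophage marker were higher, or 3 and 1 with SIRT5OE TAC 3 left out. Fits with each heart left out in turn gave 0 to 4 for either list. No cardiomyocyte, endothelial, mural or erythroid marker was called in that genotype. No measured marker of these lists was at 0 in every heart. The part of these shifts in the changes of the mitochondrial ribosomal protein genes was not tested.

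Across the 78 genes, the WT change after TAC showed a Spearman correlation of -0.12 with the length of the longest transcript and 0.22 with its GC content, against -0.060 and 0.18 across 15375 genes. For the change in SIRT5OE hearts the correlations had the opposite signs, 0.19 with length and -0.33 with GC content, against -0.052 and -0.051 across those genes. These points share the same hearts and are a description.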

How the data were processed

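RNA of 15 whole mouse hearts was sequenced after depletion of ribosomal RNA. The signal values are normalized counts as deposited: the authors quantified reads with kallisto (0.43.1 in the processing notes, another version in the methods) against Ensembl mouse cDNA, summed them per gene with tximport and tested them with DESeq2. How the authors scaled the deposited values was not given in the sources used here. They are not whole reads, so no count model was used, depth is unknown and precision rests on the number of hearts.

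Of 36727 rows, 16690 with at least 10 in 3 or more hearts were tested as log2(normalized count + 1), which understates changes of low genes. A limma 3.58.1 fit (R 4.3.3) of 4 group means with a mean-variance trend gave 2-sided p-values, adjusted by Benjamini-Hochberg over these rows and called under 0.05. SE is the standard error of the log2 fold change. The procedure was tested on simulated data with independent genes and the same spread in every group. That test does not cover the wider spread of the TAC hearts or genes that move together within a heart. The members and lists were chosen with earlier results of these data known.

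Named are, per comparison and direction, the 6 called members of smallest adjusted p (values of every heart for the first 3), the 3 highest and 3 lowest per kb, Mrps18a, Mrps18b, Mrps18c, Mrps30, Mrps36, Mrpl12 and Mrpl58, and the 2 called genes of smallest adjusted p in each other list. Pseudogene copies were searched with blastn 2.17.0 and figures drawn with matplotlib 3.10.9. Alternatives were other pseudocounts, filters and scalings, each pair of groups fitted alone, a block for the replicate number, array weights, no trend and each heart left out. Entering identical rows once was added after seeing the data. Strand of counting was not given in the sources used here.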

Additional observations from a re-analysis of the deposited data

Results flagged for a closer look

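In 3 of 75 named gene and group values, 1 of the 4 hearts of a group lay far from the others; the gap to the nearest heart took most of the group's range (Dixon's 95% criterion). Chance gives about 1 in 20 such cases, and over all 78 genes there were 10 in 234. Mrpl12 held 9407 normalized counts in WT sham replicate 1, against 8511 to 8642 in the other WT sham hearts. Mrpl58 held 1759 normalized counts in WT sham replicate 2, against 1963 to 1989 in the others of its group. Mrps18a held 3168 normalized counts in SIRT5OE TAC replicate 1, against 2305 to 2386 in the rest of that group. The causes were not tested.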

How the results depend on the processing

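The share of all rows called was counted in the main fit only, so counts of called genes under the alternatives stand without it. Of 448 values under the alternatives for the 16 called changes of named genes, 105 were no longer called and 0 reversed. The calls of Mrpl39, Mrpl50, Mrps28, Mrpl42, Mrps31, Mrps34 and Mrps18b in WT hearts held under all 28 alternatives. With each heart scaled to the same total, the median log2 fold change of the 78 genes was 0.068 for WT TAC against WT sham, -0.052 between the TAC groups and -0.022 for the interaction, while the medians of all genes were 0.28, -0.17 and -0.22. In WT hearts 17 genes were then higher and 6 lower, in SIRT5OE hearts 3 were higher, and between the TAC groups 0 were higher and 5 lower. That scaling also ended the WT call of Mrps30 (adjusted p = 0.219 in limma). Scaling to the total outside the mitochondrial genome gave 7 genes higher in WT and 2 in SIRT5OE hearts. In WT hearts 2 genes were higher with no filter, no mean-variance trend, quantile normalization or upper-quartile scaling. In SIRT5OE hearts 0 were higher with no filter, no trend or the compared groups alone, while array weights gave 4 higher and 2 lower. Between the TAC groups 0 were higher and 0 lower with no trend or the compared groups alone. There, no filter gave 1 higher and 0 lower, and array weights or upper-quartile scaling 0 lower. The causes were not tested.

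With each heart left out in turn, WT hearts had 15 to 34 genes lower and 2 to 5 higher, SIRT5OE hearts 0 to 2 higher and 0 to 1 lower, and SIRT5OE TAC against WT TAC 0 to 17 higher and 0 to 2 lower.

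The labels number the replicates in every group, but nothing ties equal numbers together. The deviations of same-numbered hearts from their group means had correlations of -0.30 to 0.078 over 21 pairs, 0 of them over 0.1. These gave no sign of pairing by number, but with so few hearts they cannot exclude a shared litter or batch. The paper lists its TAC mice in several batches, and the labels do not give the batch of a heart. With the replicate block, 0 genes were higher and 0 lower between the TAC groups, and the other counts stayed within 1.5 times.

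Groups of 3 or 4 hearts limit what can be called, and the deposited values give no read depth. Entering rows with identical values once changed no count by over 1.5 times.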
